A study of Mus musculus with 9 samples.

Results

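Cdkn1a, Cdkn1b, Cdkn2a, Cdkn2b, Cdkn2c, Cdkn2d, Btg1, Btg2, Rb1 and Rbl2 encode inhibitors of the cell cycle and the pocket proteins on which many of them converge. They were read on 17 probe sets of an Affymetrix mouse array, which are all those annotated to exactly 1 of these 10 gene symbols, out of 34945 probe sets with a single symbol covering 18193 genes. The CIP/KIP inhibitors Cdkn1a and Cdkn1b had 4 probe sets, the INK4 inhibitors Cdkn2a, Cdkn2b, Cdkn2c and Cdkn2d had 4, Btg1 and Btg2 had 5, and the pocket proteins Rb1 and Rbl2 had 4. Of the 17, 16 passed a filter on low signals and were tested.

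The 9 mouse samples were cells taken by laser capture and labelled as neural crest cells, with 3 arrays for each of 3 stages. The E8.5 cells came from embryos at 8.5 days while the neural tube was closing, the E13.5 cells from the dorsal root ganglion at 13.5 days, and the P90 cells from the adrenal medulla of adults at 3 months. The series was designed to follow DNA repair genes, no sample was treated, and strain, genotype, sex and the mark by which cells were recognised are not given in the sources used here. Each stage was taken from a different place, so stage and tissue cannot be told apart in any comparison. Samples of a stage are labelled as biological replicates, but how many animals went into each is not given, so the p-values measure the spread between these samples. In these captured mixtures, fewer cells of a type and less RNA per cell cannot be told apart.

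As background, a cell enters S phase when cyclin-dependent kinases phosphorylate the pocket proteins Rb1, Rbl1 and Rbl2, which then release the E2F transcription factors they hold. INK4 proteins bind Cdk4 and Cdk6 and keep D-type cyclins from activating them, whereas CIP/KIP proteins bind a wider range of cyclin-kinase complexes. Btg1 and Btg2 are antiproliferative adaptors that bring the CCR4-NOT deadenylase to messenger RNAs. Migrating neural crest cells divide, and neurons and chromaffin cells that derive from them leave the cycle as they mature.

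In the fit of all 9 arrays no member fell in any comparison. Of all probe sets, 6.98% fell from E8.5 to E13.5, 4.6% from E13.5 to P90 and 11.2% from E8.5 to P90. With 16 member probe sets tested, 0 falls are near these shares. Once E13.5 replicate 2 was left out, 4 member probe sets fell from E13.5 to P90, that of Rb1 on a single E13.5 value. In that fit 10.6% of all probe sets were called, 28% of them as rising. With quantile normalization 1, of Rb1, fell. Btg2 rose in P90 adrenal medulla against both embryonic stages, by 5.75-fold against E8.5 and 4.08-fold against E13.5 at its brighter probe set. Cdkn2c rose 7.37-fold from E8.5 to P90. Cdkn2b, and Rbl2 at the dimmer of its 2 probe sets, were also called as higher at P90 than at E8.5. Both were under the filter signal of 26.1 on every E8.5 array and passed the filter only through later stages, so these 2 calls are given as a description. Between E8.5 and E13.5 the only call was Cdkn1a, 3.54-fold higher at 1 of its 2 probe sets. For Cdkn1b, Cdkn2a, Cdkn2d, Btg1 and Rb1, no probe set tested passed in any comparison. Over the same stages, kinases, cyclins and E2F target genes of S phase fell in large numbers. Folds here are differences of log2(signal + 16) between stage means, which understate changes of dim probe sets, and a call is an adjusted p under 0.05 in limma with Benjamini-Hochberg adjustment over 24012 probe sets.

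**Figure D1:**
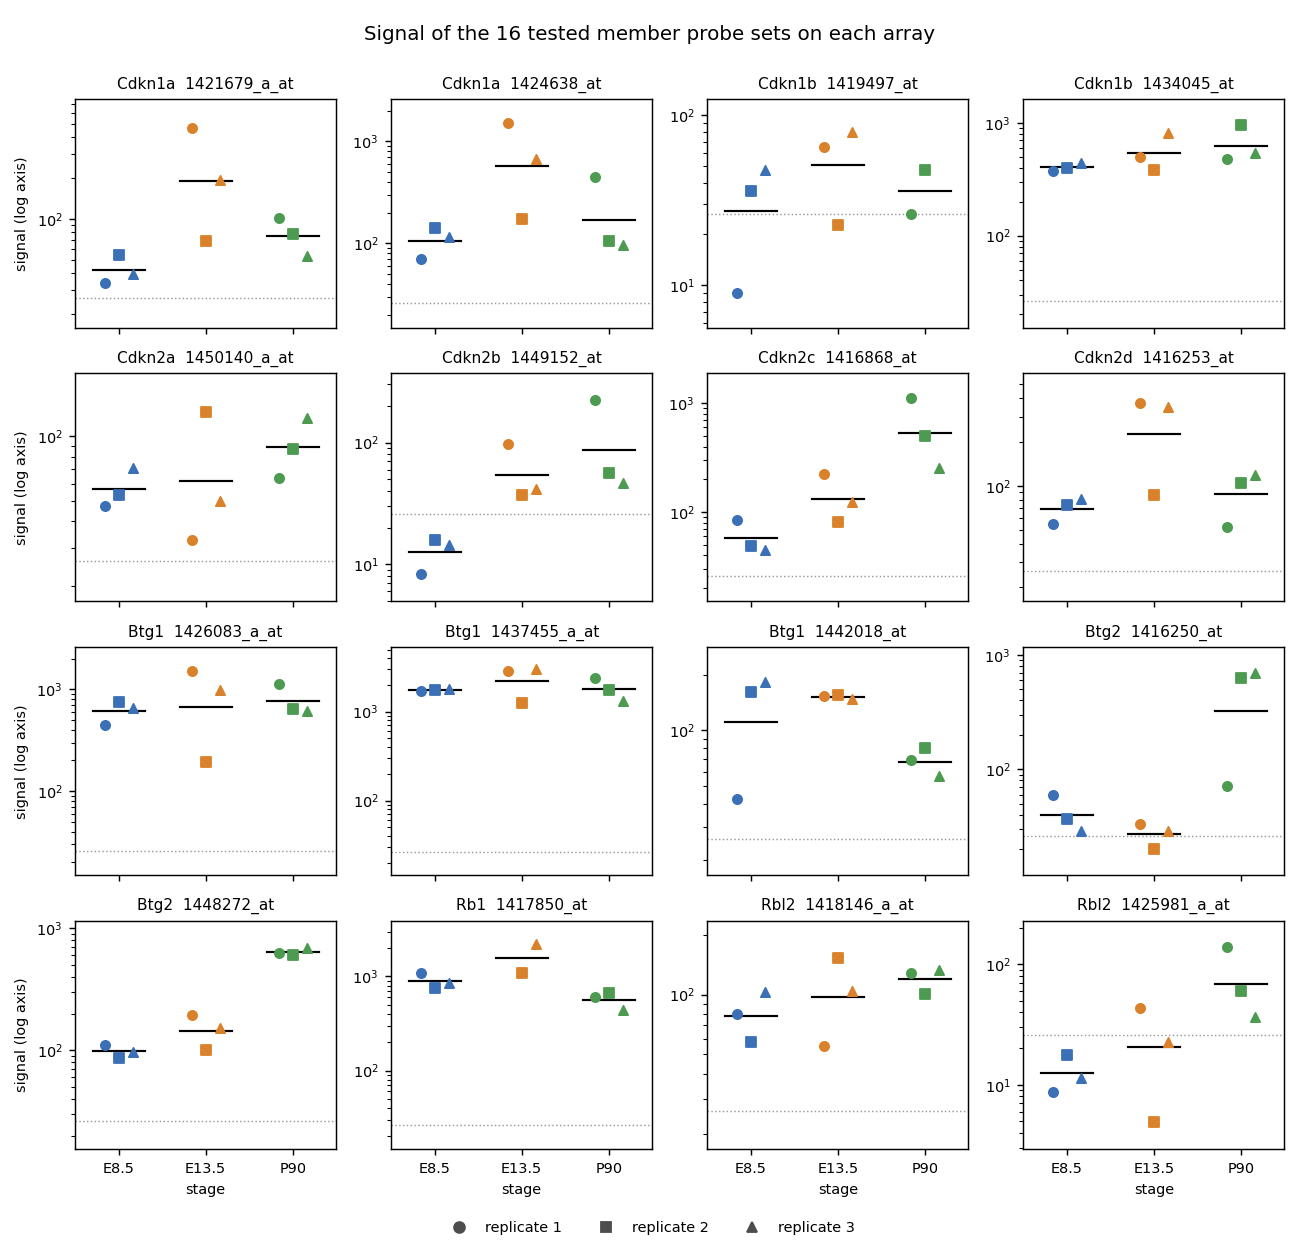
Deposited signal (linear intensity, log axis) of the 16 tested probe sets on each of the 9 arrays, 3 per stage, with marker shape for the replicate number. Black lines are stage means of log2(signal + 16) turned back to signals, and the dotted line marks the filter signal of 26.1. Btg2 at 1448272_at lies between 602 and 695 on the P90 arrays and at or under 196 on the others.

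The libraries were uneven within stages. Correlations of arrays over all probe sets ran from 0.951 to 0.986 at E8.5, but E13.5 replicate 2 reached only 0.877 to 0.943 with its partners against 0.958 between those, and P90 replicate 1 reached 0.914 to 0.922 against 0.98. The log2 difference of the 3' over the 5' control probe set of Actb, a measure of RNA integrity, ran from 0.85 to 6.69, was highest on E13.5 replicate 2, and on P90 replicate 1 (1.36) was below the other P90 arrays (4.03 and 3.47). Chromaffin markers matched the adrenal label, with summed signals over 4 genes of 11724 to 21252 at P90, lowest on replicate 1, against 1202 to 3765 at E13.5 and 140 to 189 at E8.5. Isl1 and Prph, the 2 sensory neuron genes with complete values of 6 listed, summed to 3253 to 5326 at E13.5 and 59.5 to 221 at E8.5. At P90 they summed to 218, 1979 and 1508 on replicates 1 to 3. The E13.5 sum was nearly all Isl1, since Prph read 101, 100 and 82 at E13.5 and 129, 103 and 88.5 at P90. Neural crest markers summed over 5 genes to 2652 to 4453 at E8.5, 1599 to 2248 at E13.5 and 709 to 1614 at P90. The epithelial genes Krt8, Krt18 and Epcam, 3 of 4 listed, summed to 858 to 2508 at E8.5 and at most 184 later. The other listed gene, Cdh1, did not follow them at E13.5. It read 26.5, 414 and 447 at E8.5, 212 and 546 on E13.5 replicates 2 and 3 (replicate 1 is empty), and 3.85 to 7.76 at P90. Mesenchymal genes (Col1a2 and Dcn of 4 listed) summed to 11546, 3115 and 6238 on E13.5 replicates 1 to 3, against 715 to 1198 at E8.5. The 4 endothelial genes summed to 1611, 669 and 1276 at E13.5, and to 3381, 526 and 525 at P90. Of 6 adrenal cortex genes, 2 could be tested. Nr5a1, at 1 of its 2 probe sets, rose from 38.7 at E8.5 to 200 at E13.5 and 382 at P90 (mean signals, the last over 2 arrays), by 2.88 ± 0.36 in log2 units to P90 (limma adjusted p = 0.000467). Cyp11a1 read 73.2, 26.2 and 16.3 at P90 and 26.3 to 28.7 at E8.5 and was not called. Cyp11a1 and the other Nr5a1 probe set, which has no empty cell, summed to 29.9 to 37.3 at E8.5 and 34.4 to 48.2 at E13.5. At P90 they summed to 80.5, 38.7 and 17.6, so that Nr5a1 probe set stayed under 80.5 throughout. At P90, Star (9 of 9 values), Cyp11b1 and Hsd3b1 (3 of 3 each) are wholly empty cells. At E13.5 so are the neuronal genes Elavl4 (9 of 9) and Tubb3 (3 of 3), the glial Fabp7 (3 of 3), and the mesenchymal Col1a1 and Col3a1 (6 of 6 each). These 5 genes have 0 empty cells at E8.5 and P90. Why cells are empty is not given, so an empty cell, here or below, is not read as absent or low signal. The glial genes Mbp and S100b, 2 of 5 listed, summed to 56.8 to 132 at E8.5 and to 73.5 to 295 at P90. On E13.5 replicates 1 to 3 they summed to 4041, 800 and 1173. Both rose at E13.5 and fell to P90. S100b read 8.42, 12.2 and 7.21 at E8.5, all under the filter signal, and passed the filter only through later stages. Its rise at E13.5 is therefore given as a description.

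**Figure D2:**
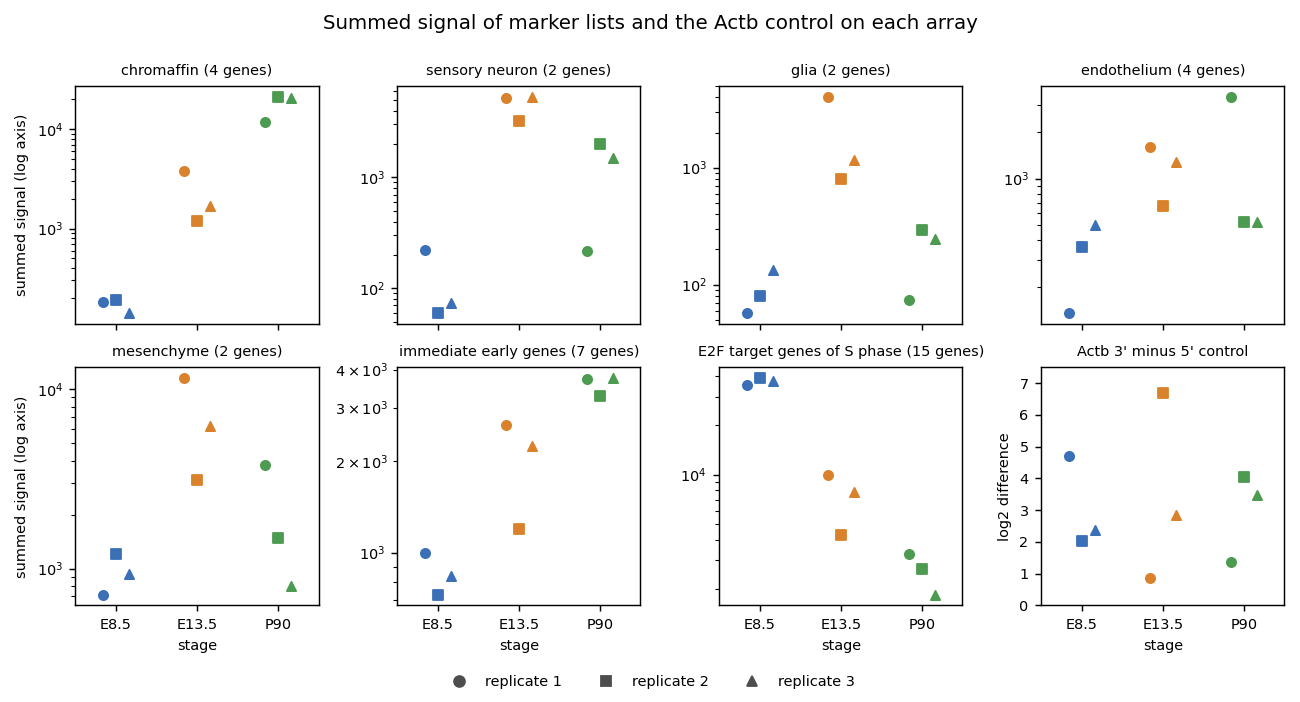
Summed signal of each marker list on each array (log axis), over the listed genes with no empty cell at the probe set used, and in the last panel the Actb 3' minus 5' difference in log2 units. E13.5 replicate 2 has the lowest mesenchymal and endothelial sums of its stage, and P90 replicate 1 has the highest endothelial sum (3381) and the lowest chromaffin sum (11724) of its stage.

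Promoters are printed for Btg2, Cdkn2c and Cdkn2b, since these are the genes whose representing probe set rose from E8.5 to P90. The representing probe set of a gene is the one with the highest mean log2 signal among those that passed. Each sequence is the 250 bases before an annotated start in RefSeq on GRCm38.p6, written 5′ to 3′ on the strand of the gene, with capitals for TGACGTCA (the cAMP response element) and GGGCGG (the GC box), searched on both strands.
Btg2, chr1:134079156-134079405, minus strand: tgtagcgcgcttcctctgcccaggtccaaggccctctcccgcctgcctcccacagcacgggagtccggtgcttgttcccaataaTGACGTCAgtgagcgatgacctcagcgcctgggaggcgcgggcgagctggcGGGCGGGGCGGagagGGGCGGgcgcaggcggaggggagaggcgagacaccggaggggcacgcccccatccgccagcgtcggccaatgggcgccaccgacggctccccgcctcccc
Cdkn2c, chr4:109666757-109667006, minus strand: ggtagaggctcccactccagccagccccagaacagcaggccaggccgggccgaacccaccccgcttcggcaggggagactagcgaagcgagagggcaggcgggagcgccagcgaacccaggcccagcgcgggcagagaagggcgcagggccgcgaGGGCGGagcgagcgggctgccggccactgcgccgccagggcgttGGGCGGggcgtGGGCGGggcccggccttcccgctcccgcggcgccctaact
Cdkn2b, chr4:89311033-89311282, minus strand: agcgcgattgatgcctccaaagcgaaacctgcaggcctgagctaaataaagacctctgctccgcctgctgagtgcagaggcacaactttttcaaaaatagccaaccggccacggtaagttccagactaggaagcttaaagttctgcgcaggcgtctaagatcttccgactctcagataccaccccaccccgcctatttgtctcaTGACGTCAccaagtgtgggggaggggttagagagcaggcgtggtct
For Cdkn2c, the start with the richer GC content of its 2 is shown (77.2% against 42.8%), a choice that favours GC boxes. The window of its other start holds neither TGACGTCA nor GGGCGG. The Btg2 window holds TGACGTCA 166 bases before the start and GC boxes at 115, 110 and 100 bases, the first pair sharing 1 base. The Cdkn2b window holds TGACGTCA at 46 bases and no GC box, and the Cdkn2c window holds 3 GC boxes at 95, 51 and 40 bases. TGACGTCA occurred in 1.55% of 32851 windows of 250 bases and in 2 of 12 windows of the 9 members found in the table, which are these 2. GGGCGG occurred in 32.7% of all windows and in 7 of the 12. TTTCCCGC or TTTGGCGC, forms of the E2F site, occurred in 1.3% of all windows and in 1 member window, of Cdkn2a, and CCAAT occurred in 33.8% and in 4. These are matches of letters, not measured sites.

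Between E8.5 and E13.5, 1 of 16 member probe sets was called. Of all probe sets, 15% were called in either direction, 7.99% as rising and 6.98% as falling, and of the members 1 rose and 0 fell. At an unadjusted p under 0.05, limma gave 4 higher and 0 lower. The share of members that rose, 6.25%, was near the background. On 4 probe sets, 2 of Cdkn1a and 1 each of Cdkn2b and Cdkn2d, every E13.5 array lay above every E8.5 array, and on 0 below, where 34.4% of all probe sets separated, 17.2% in each direction. The median change of the members was 0.44 in log2 units, against -0.01 over all probe sets. At the representing probe sets, 10 of 10 genes were higher with a median of 0.64, 0 of them called, beside 51.5% of all genes higher and 15.6% called, 8.82% as rising. The count of member probe sets called was 0 without any one of E8.5 replicates 1 to 3, E13.5 replicates 1 or 3, or P90 replicates 2 or 3. It was 3 without E13.5 replicate 2 and 3 without P90 replicate 1, and all of these rose. Leaving both of those arrays out, a choice made after seeing the data, gave 7, which all rose. Of all probe sets, 23.5% were called with both arrays left out, 65.1% of them as rising. The share called was 15.9% without E13.5 replicate 2 and 17.8% without P90 replicate 1. It was 8.16% to 14.1% in the fits that called 0 members.

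From E13.5 to P90, 2 of 16 member probe sets rose, both of Btg2, and 0 fell in limma. Of all probe sets, 7.48% were called, 2.88% as rising and 4.6% as falling. At an unadjusted p under 0.05, 4 were higher and 5 lower. The P90 arrays all lay above the E13.5 arrays on 3 probe sets (Cdkn2c and both of Btg2) and below on 2 (Rb1 and 1 of Btg1), beside 10% and 12.5% of all probe sets (22.5% together), and the median change was 0.21 against -0.02. Of the 10 genes, 1 rose, where 8.58% of all genes were called and 3.18% rose. Without E13.5 replicate 2, 6 probe sets were called, 2 higher and 4 lower, and without E13.5 replicate 3 or P90 replicate 2 the count was 1. Without both E13.5 replicate 2 and P90 replicate 1 it was 8, of which 3 rose and 5 fell. The falls were Cdkn1a at both probe sets, Cdkn2d, Btg1 at its brightest and Rb1, here on a single E13.5 value, and Cdkn2a joined Btg2 among the rises (1.07; limma adjusted p = 0.0334). Of all probe sets, 10.6% were called without E13.5 replicate 2, 28% of them as rising. Without both arrays 21.4% were called, 25.8% of them as rising. The share called was 3.46% without E13.5 replicate 3 and 4.73% without P90 replicate 2.

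From E8.5 to P90, 5 of 16 member probe sets rose and 0 fell. Of all probe sets, 20.8% were called, 9.57% as rising and 11.2% as falling. At an unadjusted p under 0.05 limma again gave 5 higher and 0 lower. The P90 arrays all lay above the E8.5 arrays on 6 probe sets, the 5 called and 1 of Cdkn1b, and below on that of Rb1, beside 19.8% and 23.2% of all probe sets (43% together), and the median change was 0.56 against 0. The 5 calls cover 4 genes. Of 10 genes at the representing probe set, 3 rose (Btg2, Cdkn2b and Cdkn2c), beside 22% of all genes called and 10.3% rising. Since 2 of the 5 called probe sets, those of Cdkn2b and Rbl2, passed the filter only through later stages, these counts are a description. The count was 2 without E8.5 replicate 2 or replicate 3, and 3 without P90 replicate 2, but stayed at 5 without E13.5 replicate 2 and P90 replicate 1. Of all probe sets, these fits called 12.7%, 14.1%, 13.4% and 34.1%, in that order. An F-test for any difference between stages called 5 of the 16, beside 23.3% of all probe sets, and 3 of the 10 genes, beside 24.8% of all genes. All 3 comparisons draw on the same 9 arrays, so they are not independent of each other.

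**Figure D3:**
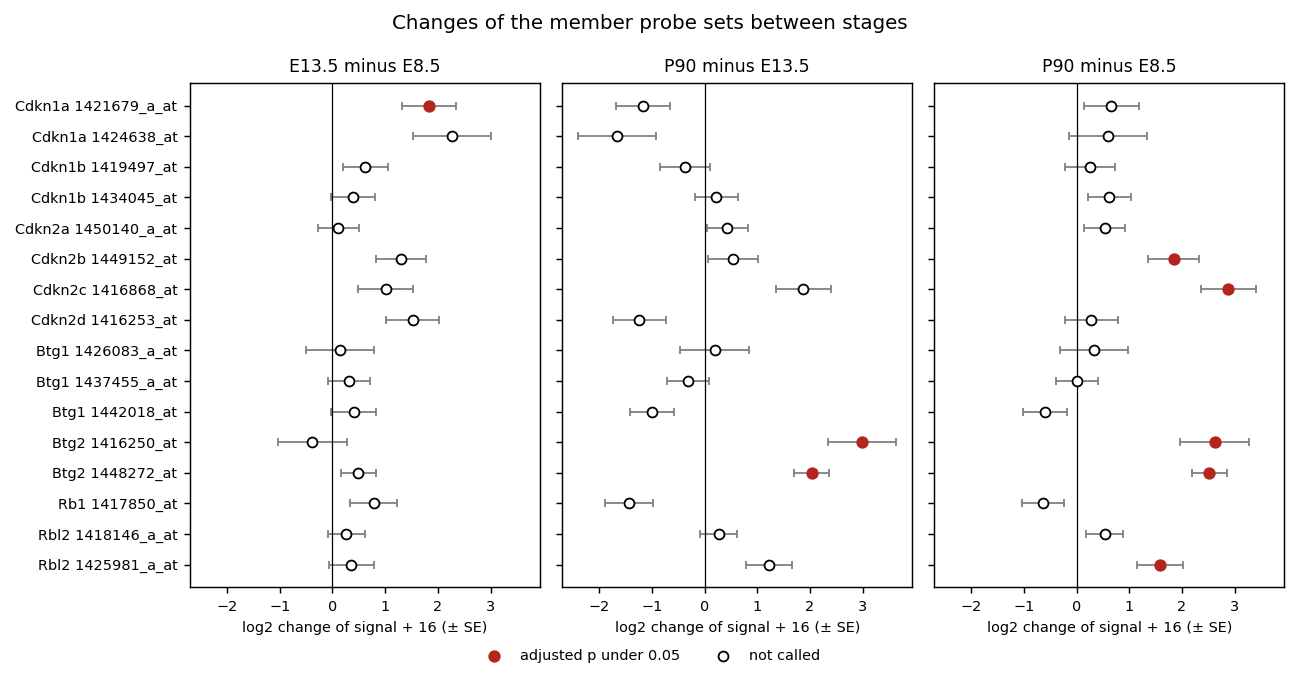
Log2 change with its standard error for the 16 tested probe sets in each comparison, from 1 limma fit of 9 arrays, with filled red points for those called at an adjusted p under 0.05. Calls are 1, 2 and 5, all of them rises, and Btg2 at 1448272_at has the smallest standard error of the members, 0.33.

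Among the CIP/KIP inhibitors, Cdkn1a, which restrains cyclin-dependent kinases after stress and at differentiation, had its highest signals at E13.5. At 1421679_a_at the signals were 33.4, 54.2 and 39.5 at E8.5, then 466, 68.7 and 194 at E13.5, then 101, 76.6 and 53.6 at P90. The E13.5 arrays all lay above the E8.5 arrays, with replicate 2 closest to them, and the P90 arrays overlapped both. The change from E8.5 to E13.5 was 1.83 ± 0.52 in log2 units (SE, 3 against 3 arrays; limma adjusted p = 0.0378). The brighter probe set, 1424638_at, gave 70.8, 142 and 116 at E8.5, 1501, 175 and 670 at E13.5, and 445, 106 and 95.6 at P90. Here too each E13.5 array exceeded each E8.5 array, and P90 replicate 1 stood above its partners. Its change of 2.26 ± 0.74 did not pass (adjusted p = 0.0644), and that to P90 was -1.66 ± 0.74 (adjusted p = 0.242). The pair of probe sets correlated at r = 0.954 over the 9 arrays, which share the stage differences.

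The Cdkn1a call rests on a small margin. At 1421679_a_at the adjusted p was 0.116, 0.0816 and 0.108 without E8.5 replicates 1, 2 and 3, 0.0747 and 0.107 without E13.5 replicates 1 and 3, and 0.0564 and 0.0533 without P90 replicates 2 and 3. It was also lost with arrays shifted to one median (0.0578), with no filter (0.0706) and with only the 2 stages in the fit (0.0633). Without E13.5 replicate 1, the highest array, the change was 1.21 and that to P90 -0.55 (adjusted p = 0.534), and at the brighter probe set they were 1.57 and -0.97 (adjusted p = 0.163 and 0.512). Without E13.5 replicate 2, in contrast, the changes were 2.46 and, at the brighter probe set, 3.07 (adjusted p = 0.00236 and 0.0081). The later change then passed as well, at -1.8 and -2.47 (adjusted p = 0.0175 and 0.0321). Across the E13.5 arrays, Cdkn1a was highest on replicate 1 and lowest on replicate 2, as were the mesenchymal, endothelial and glial sums and, in the opposite sense, the Actb difference. Their part in the Cdkn1a values was not tested.

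Cdkn1b, an inhibitor that is largely controlled by protein turnover, passed in no comparison. Its brighter probe set, 1434045_at, read 377, 398 and 443 at E8.5, 498, 382 and 810 at E13.5, and 475, 965 and 543 at P90. The P90 arrays all exceeded the E8.5 arrays, and the E13.5 arrays overlapped both. The change from E8.5 to P90 was 0.62 ± 0.41 (adjusted p = 0.323). The dimmer 1419497_at ran from 8.98 to 79.3 over the 8 arrays with a value, was empty on P90 replicate 3, and had no adjusted p under 0.408.

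Of the INK4 inhibitors, Cdkn2c had the largest rise. Its probe set 1416868_at read 84.6, 49.3 and 45 at E8.5, 225, 81.3 and 124 at E13.5, and 1115, 504 and 256 at P90. Every P90 array exceeded every embryonic array, while 1 E13.5 array, replicate 2, lay below the highest E8.5 array. Stage means were 59.6 ± 21.7, 143.2 ± 73.6 and 625.2 ± 442 (SD; 3 arrays each). The change from E8.5 to P90 was 2.88 ± 0.52 (SE; adjusted p = 0.00293), and it was called in all 22 alternatives in which it could be computed, with adjusted p from 0.00101 to 0.017. The steps within it were 1.01 ± 0.52 to E13.5 (adjusted p = 0.246) and 1.87 ± 0.52 from there to P90 (adjusted p = 0.0551), neither of them called. P90 replicate 1, the array with the highest endothelial sum, had the highest Cdkn2c signal of its stage; without it the change from E8.5 was 2.35 (adjusted p = 0.00476).

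Cdkn2b, which lies beside Cdkn2a and is known as a target of TGF-beta signalling, read 8.36, 15.7 and 14.3 at E8.5 on 1449152_at, all under the filter signal of 26.1. It read 98.1, 36.9 and 41.4 at E13.5 and 224, 56.2 and 46.1 at P90, and these 6 arrays alone brought it past the filter. Both later stages lay wholly above E8.5, and they overlapped each other. The change from E8.5 was 1.3 ± 0.48 at E13.5 (adjusted p = 0.1) and 1.84 ± 0.48 at P90 (adjusted p = 0.0194). The call at P90 was lost without any one of the E8.5 arrays (adjusted p = 0.0701, 0.0521 and 0.0523 for replicates 1, 2 and 3). Without P90 replicate 1, where Cdkn2b stood at 224, the change at P90 was 1.23 (adjusted p = 0.0263), and that at E13.5 passed at 1.3 (adjusted p = 0.0146). Cdkn2b was highest within E13.5 and within P90 on replicate 1, the arrays with the highest endothelial and mesenchymal sums of those stages. The part of those cells in the rise was not tested.

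Cdkn2a encodes an INK4 protein and, from another reading frame, Arf, and its single probe set 1450140_a_at does not tell their transcripts apart here. It read 47, 53.1 and 70.9 at E8.5, 32.8, 130 and 50 at E13.5, and 64.1, 87.1 and 122 at P90. The stages overlapped throughout, and the largest change was 0.53 from E8.5 to P90 (adjusted p = 0.381).

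Cdkn2d, an INK4 protein found in many differentiating neurons, read 54.4, 74 and 80.6 at E8.5 on 1416253_at, then 372, 86 and 348 at E13.5, then 51.9, 104 and 118 at P90. The E13.5 arrays all exceeded the E8.5 arrays, by little on replicate 2, whose signal fell among those of P90. The change to E13.5 was 1.52 ± 0.5 (adjusted p = 0.0648) and that from E13.5 to P90 was -1.24 (adjusted p = 0.189). Without E13.5 replicate 2 both passed, at 2.15 (adjusted p = 0.00277) and -1.87 (adjusted p = 0.00915), whereas without E13.5 replicate 3 they were 1.23 and -0.95 (adjusted p = 0.217 and 0.497). The sensory neuron sum was lower on E13.5 replicate 2 as well (3253 against 5242 and 5326 on replicates 1 and 3). The part of sensory neurons in the Cdkn2d values was not tested.

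Btg2, which is induced rapidly by many stimuli and by neuronal differentiation, gave the firmest result of the 10 genes. At 1448272_at it read 111, 87.1 and 97.6 at E8.5, 196, 99.9 and 152 at E13.5, and 625, 602 and 695 at P90. The P90 arrays lay close together and far above all embryonic arrays, while E13.5 replicate 2 fell within the E8.5 range. Means were 98.4 ± 11.8, 149.5 ± 48.1 and 640.5 ± 48.6 (SD; 3 arrays each). The change was 2.52 ± 0.33 from E8.5 (adjusted p = 0.000398) and 2.03 ± 0.33 from E13.5 (adjusted p = 0.0038), and both were called in all 23 alternatives, the other probe set among them, with adjusted p up to 0.0161 and 0.029. From E8.5 to E13.5 the change was 0.49 ± 0.33 (adjusted p = 0.383).

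The second Btg2 probe set, 1416250_at, read 59, 36.4 and 28.7 at E8.5, 33.1, 20.2 and 29.1 at E13.5, and 71.9, 629 and 699 at P90. P90 replicates 2 and 3 stood far above the embryonic arrays, whereas replicate 1 was only just above them. The changes were 2.62 ± 0.65 from E8.5 (adjusted p = 0.0161) and 2.99 ± 0.65 from E13.5 (adjusted p = 0.0184). The first was lost without E8.5 replicates 2 or 3 or P90 replicates 2 or 3 (adjusted p from 0.0558 to 0.0687), and the other without E13.5 replicate 3 or P90 replicates 2 or 3, or in a fit of only the 2 stages (0.0636 to 0.0756). Without P90 replicate 1 they were 3.6 and 3.98. The probe sets correlated at r = 0.818 over 9 arrays.

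Other immediate early genes were read beside Btg2, since such genes respond to tissue handling as well as to signals. Of 10 tested, Egr1 and Klf4 rose from E8.5 to E13.5, Egr1 and Junb from E13.5 to P90, and Egr1, Junb and Dusp1 from E8.5 to P90, where Atf3 fell. Their changes from E8.5 to P90 were 4.99 ± 0.58 for Egr1 (adjusted p = 0.000182), 3.21 ± 0.3 for Junb (adjusted p = 4.68e-05), 2.08 ± 0.52 for Dusp1 (adjusted p = 0.018) and -1.03 ± 0.3 for Atf3 (adjusted p = 0.0345). Junb was under the filter signal on every embryonic array, at 1.59 to 6.2 at E8.5 and 2.18 to 23.6 at E13.5. It read 207, 163 and 126 at P90 and passed the filter only through that stage. Its calls against both embryonic stages are therefore given as a description. Of all genes, 8.82% rose from E8.5 to E13.5, 3.18% from E13.5 to P90 and 10.3% from E8.5 to P90, where 11.8% fell. The median over the list from E8.5 to P90 was 1.04, against 0 over all genes. The counts moved with single arrays: from E8.5 to E13.5, 4 were called without E13.5 replicate 2 or P90 replicate 1 and 1 without any of E8.5 replicates 1 to 3, or of E13.5 replicate 1, E13.5 replicate 3 or P90 replicate 2. From E13.5 to P90, 1 was called without replicates 2 or 3 of any stage, and from E8.5 to P90, 2 without E8.5 replicate 2. Summed over the 7 of 11 listed genes without an empty cell, the signal was 728 to 998 at E8.5, 1198 to 2629 at E13.5 and 3279 to 3748 at P90, and Fos was empty on all 3 P90 arrays. Macrophage genes, 4 of 6 listed, summed to 2556 to 4158 at P90, 1974 to 2493 at E13.5 and 1226 to 1823 at E8.5. Within that list C1qb went from a mean of 33.4 at E8.5 to 108 and 769 at the later stages and C1qc from 8.64 to 41.7 and 188, and both rose at P90 against E8.5 (3.8 and 3; adjusted p = 0.000249 and 0.000242) and against E13.5 (2.47 and 1.81; adjusted p = 0.00809 and 0.0121). C1qc was under the filter signal on every E8.5 array and passed only through later stages, so its call against E8.5 is a description. The part of the immediate early genes or the macrophage genes in the Btg2 rise was not tested.

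Btg1, the close relative of Btg2, showed no call at any of 3 probe sets. At the brightest, 1437455_a_at, it read 1713, 1773 and 1810 at E8.5, 2859, 1264 and 3000 at E13.5, and 2410, 1742 and 1336 at P90. The ranges overlapped in every comparison, with E13.5 replicate 2 the lowest array of all, and the change from E8.5 to P90 was 0.01 (adjusted p = 0.991). The second, 1426083_a_at, ran from 195 to 1512 and followed the first at r = 0.835. The third, 1442018_at, ran from 42.5 to 182 with r of 0.241 and 0.0763 to the others. On it the P90 arrays (68.9, 80.1 and 56.7) lay below the E13.5 arrays (153, 156 and 148), a change of -1 ± 0.42 that did not pass (adjusted p = 0.219). Without E8.5 replicate 1, whose signal of 42.5 lay below its partners at 162 and 182, this probe set was called as lower at P90 than at E8.5 (-1.16; adjusted p = 0.0238) and than at E13.5 (-1; adjusted p = 0.0472).

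Of the pocket proteins, Rb1 read 1101, 763 and 855 at E8.5 on 1417850_at, 1083 and 2222 on E13.5 replicates 2 and 3, and 610, 674 and 443 at P90. The value of E13.5 replicate 1 is an empty cell, so the E13.5 mean rests on 2 arrays. The P90 arrays lay below all others, yet neither change passed: -1.43 ± 0.45 from E13.5 (adjusted p = 0.0963) and -0.64 ± 0.4 from E8.5 (adjusted p = 0.297). Without E13.5 replicate 2, which leaves a single E13.5 value assumed to vary like the other stages, the first was -1.94 (adjusted p = 0.0307), and without E13.5 replicate 3, which leaves replicate 2, it was -0.91 (adjusted p = 0.516). With quantile normalization it was called at -1.52 (adjusted p = 0.00853), as was the change from E8.5 to E13.5 (1.12; adjusted p = 0.0219). The other Rb1 probe set, 1444400_at, ran from 1 to 4.49 over the 9 arrays, did not pass the filter and was not tested.

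Rbl2, the pocket protein linked most closely to resting cells, was read differently by its 2 probe sets. The brighter 1418146_a_at read 79.5, 57.6 and 103 at E8.5, 55.1, 153 and 104 at E13.5, and 128, 101 and 133 at P90. These ranges overlapped, and the change from E8.5 to P90 was 0.53 (adjusted p = 0.323). The dimmer 1425981_a_at read 8.64, 17.8 and 11.4 at E8.5, 43.6, 4.94 and 22.8 at E13.5, and 138, 59.6 and 36.6 at P90. Its P90 arrays all exceeded its E8.5 arrays, which were under the filter signal, and the change was 1.58 ± 0.43 (adjusted p = 0.0239). It passed the filter through 4 arrays, all 3 of P90 and E13.5 replicate 1, so its high stage decided its entry and the call is a description. The call was lost without any one of the E8.5 arrays or without P90 replicates 1 or 2 (adjusted p from 0.0517 to 0.0821). The probe sets correlated at r = 0.0754 over 9 arrays, so the Rbl2 call stands on the dimmer one alone.

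Relatives of the members moved in both directions. Rbl1, the third pocket protein and itself an E2F target, fell from 241 ± 77.2 at E8.5 to 79.2 ± 27.3 at E13.5 and 74.1 ± 6.77 at P90 (SD; 3 arrays each), a change of -1.43 ± 0.33 (adjusted p = 0.015) and -1.47 ± 0.33 (adjusted p = 0.00992). Tob1, an antiproliferative relative of Btg2, rose in P90 by 2.5 ± 0.53 against E8.5 (adjusted p = 0.00682) and 2.27 ± 0.53 against E13.5 (adjusted p = 0.0252). Cdkn1c, the remaining CIP/KIP gene, read 1136, 1315 and 1098 at E8.5, 4825, 2102 and 3327 at E13.5, and 6850, 236 and 153 at P90. Its E13.5 arrays all exceeded the E8.5 arrays, and P90 replicate 1 stood far above the other 2, which lay below every embryonic array. None of its changes was called (adjusted p = 0.449 at E13.5 against E8.5). The Rbl1 fall to E13.5 was not called without E8.5 replicates 2 or 3 or E13.5 replicate 3, and 0 relatives rose from E13.5 to P90 without P90 replicates 1 or 2. Without P90 replicate 1, 1 relative rose from E8.5 to E13.5 and 1 fell from E13.5 to P90, and without E8.5 replicate 2 only 1 was called from E8.5 to P90, a rise. Of the 4 relatives tested, 0 rose and 1 fell at E13.5 against E8.5, 1 rose and 0 fell at P90 against E13.5, and 1 rose and 1 fell at P90 against E8.5. In the same order, 8.82%, 3.18% and 10.3% of all genes rose and 6.77%, 5.4% and 11.8% fell.

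Every call among the kinases and cyclins that the inhibitors hold was a fall. Of 10 tested, 6 fell from E8.5 to E13.5 and 6 from E8.5 to P90, 2 fell from E13.5 to P90, and 0 rose in any comparison, beside 6.77%, 11.8% and 5.4% of all genes falling. The median changes were -1.79, -1.51 and 0.26, against 0.02, 0 and -0.05 over all genes. Cdk1, the mitotic kinase, fell by 2.62 at E13.5 and Ccnd2, a D-type cyclin, by 2.15 (adjusted p = 0.00555 and 0.0123). Ccnd1, the partner of Cdk4 and Cdk6, changed by -1.87 ± 0.36 (adjusted p = 0.00537) and, from E8.5 to P90, by -1.38 ± 0.36 (adjusted p = 0.0185). From E8.5 to P90 the largest falls were Cdk1 at -4.92 and Ccna2 at -4.65, and these were also the 2 that fell from E13.5 to P90, by 2.29 and 2.88. At an unadjusted p under 0.05, limma gave 0, 0 and 1 as higher in the same order. The count of falls from E13.5 to P90 was 1 without E13.5 replicate 3 or P90 replicates 2 or 3.

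Of 15 partners of the pocket proteins among E2F, DP and MuvB genes, 3 fell from E8.5 to E13.5, 2 from E13.5 to P90 and 7 from E8.5 to P90, and 0 rose (limma; 0 higher at an unadjusted p under 0.05 in each). The medians were -0.81, -0.25 and -1.06, against 0.02, -0.05 and 0 over all genes, of which 6.77%, 5.4% and 11.8% fell. E2f7 and E2f8, the atypical repressors, had the largest falls each time, reaching -4.98 ± 0.31 and -3.9 ± 0.31 from E8.5 to P90. E2f7 read 18.4, 19.8 and 17.3 at P90, under the filter signal, and passed the filter only through the embryonic stages. Its falls to P90, and its part in those counts, are therefore a description. E2f1 had signals of 325 ± 22.9, 229 ± 22.7 and 242 ± 66.5 by stage (SD; 3 arrays each) and was not called. From E8.5 to P90 the count was 4 without E8.5 replicate 2 or 3 and 3 without P90 replicate 3, and from E13.5 to P90 it was 4 without E13.5 replicate 2.

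E2F target genes of S phase showed the most calls: of 16 tested, 14 fell from E8.5 to E13.5, 6 from E13.5 to P90 and 15 from E8.5 to P90, with 0 rises (limma; 0 higher at an unadjusted p under 0.05 in each). The medians were -2.49, -1.23 and -3.91, against 0.02, -0.05 and 0 over all genes, of which 6.77%, 5.4% and 11.8% fell. Tyms, which is among the genes tested, read 59.1, 33.1 and 39.5 at E8.5 and at most 12.4 later. It passed the filter only through E8.5, so its part in these counts is a description. Cdc6 (5.96 to 8.81) and Tk1 (11 to 23.2) were under the filter signal on every P90 array and passed only through the embryonic stages. Their part in the counts of falls to P90 is a description as well. Mki67, the proliferation marker, read 3160, 3804 and 3954 at E8.5, 977, 530 and 1072 at E13.5, and 63.8, 43.7 and 47.8 at P90. No arrays of different stages overlapped, and its changes were -2.12 ± 0.38, -3.64 ± 0.38 and -5.76 ± 0.38 (adjusted p = 0.00365, 0.000291 and 8.97e-06). The licensing factors Cdc6 and Cdt1 had the largest falls to E13.5, at -3.92 and -3.34. For both, E8.5 replicate 1 is an empty cell, so the E8.5 mean rests on 2 arrays. Top2a and Mcm5 had the largest falls from E8.5 to P90, at -5.85 and -5.81. From E13.5 to P90 these were Mki67 and Top2a, the latter at -3.06.

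Genes that control the inhibitors' turnover and transcription were mixed. Of 16 tested, 3 fell from E8.5 to E13.5, and from E8.5 to P90 5 fell and 2 rose. The first count was 1 and the next 4, all falls, without E8.5 replicate 2. From E13.5 to P90, 3 fell and 1 rose, but 2 were called there without E8.5 replicate 2, and 0 without E13.5 replicate 1 or 3 or without P90 replicate 2 or 3. Of all genes, 6.77% fell from E8.5 to E13.5, and 11.8% fell and 10.3% rose from E8.5 to P90. From E13.5 to P90, 5.4% fell and 3.18% rose. Cks2, a cofactor of cyclin-dependent kinases, changed by -2.51 and then -2.43, and Ezh2, the Polycomb methyltransferase known to silence the Cdkn2a locus, by -2.25 to E13.5 and -3.82 to P90 from E8.5. Cks1b, with which the Skp2 ligase recognises Cdkn1b, fell by 2.14 from E13.5 to P90. The rises at P90 against E8.5 were Foxo3, a transcription factor known to activate Cdkn1b, at 1.51 ± 0.42, and Cbx7, a Polycomb reader, at 1.37 ± 0.36 (adjusted p = 0.0262 and 0.0211), and Cbx7 also rose from E13.5, by 1.4. Of 7 tested partners of the BTG proteins in the CCR4-NOT complex and among arginine methyltransferases, only Prmt1 was called, at -1.62 to E13.5 and -2.67 to P90 from E8.5 (adjusted p = 0.0106 and 0.000429). The other 6 gave 0 calls in limma in any comparison, with the whole list giving 1, 1 and 2 at an unadjusted p under 0.05, but from E8.5 to P90 the list had 2 calls without E13.5 replicate 2.

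**Figure D4:**
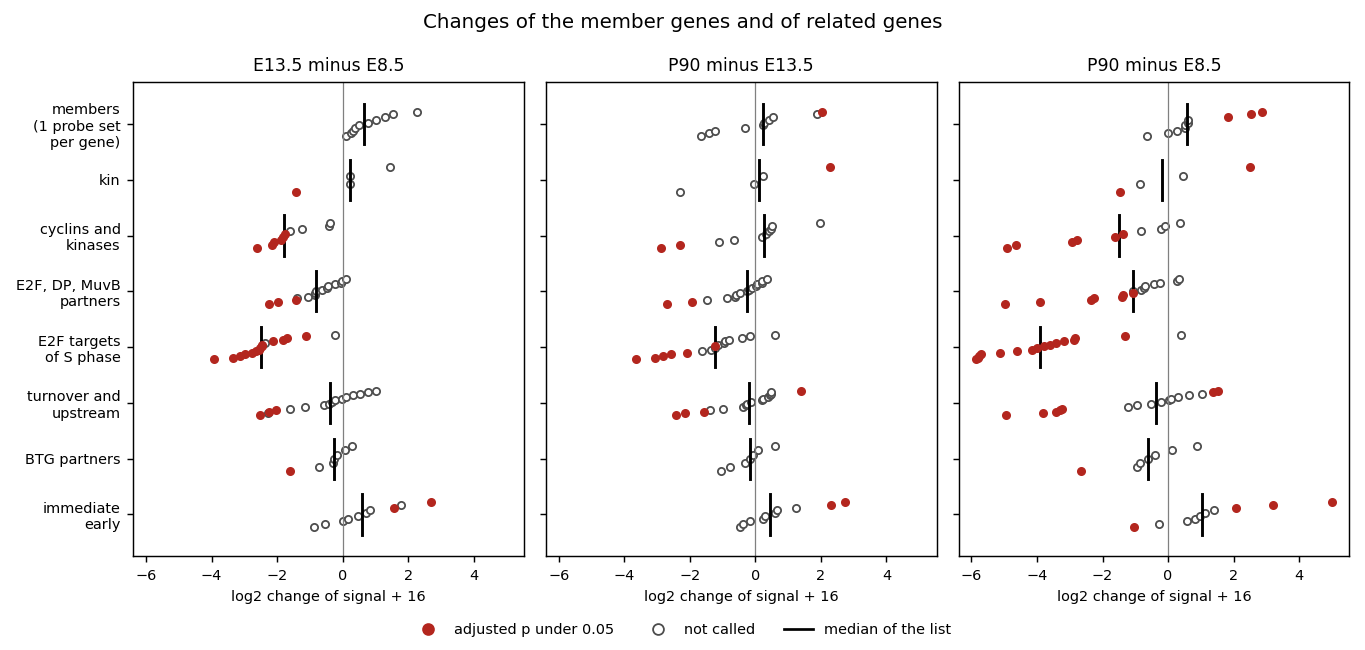
Log2 change of each tested gene of the 7 related lists and of the members at its representing probe set, by comparison, with a black line at each list's median. The E2F targets of S phase have medians of -2.49, -1.23 and -3.91, and the 10 members 0.64, 0.24 and 0.56.

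For the 3 genes that differed between stages by the F-test at their representing probe set, the most similar profiles were sought among 11966 other genes with complete values. The measure was Pearson's r of log2(signal + 16) over the 9 arrays, a description, since all these genes share the stage differences and the same libraries. Btg2 was closest to Nmi (r = 0.99) and Parp12 (r = 0.978), both known as interferon-induced genes. Cdkn2c was closest to Ezh1, a Polycomb methyltransferase, and Hint3 (both r = 0.989), and Cdkn2b to Vstm4 (r = 0.988) and Mir22hg (r = 0.987).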

How the data were processed

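Per the labels' protocols, total RNA of each of the 9 laser captures was isolated by PicoPure, and 400 ng of it went into biotinylated cRNA. The deposited table gives an intensity for every probe set and array; the values are linear and never under 1. GCOS, MAS5, GCRMA and RMA stand in the submitters' processing notes, but the tool and scaling behind the table are not given in the sources used here. Of 405909 cells, 8048 (1.98%) were empty and stayed empty. The table lists 45101 probe sets: 64 controls, 34945 with a single gene symbol, 932 with several and 9160 without; Entrez identifiers of 34741 matched the gene table, which changed 0 symbols. Medians per array were 38.3 to 48.2. The number of arrays limits the precision.

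Values were used as log2(signal + 16). Probe sets were tested if 3 or more arrays exceeded a signal of 26.1, the 40th percentile over the table, and each stage had 2 or more values. All 24012 such probe sets entered 1 limma fit (3.58.1, R 4.3.3; lmFit and eBayes with a variance trend, two-sided, 6 residual degrees of freedom). The fit was tested on simulated data. The members, marker lists and related lists were chosen with earlier results of these data known. Named genes were every member, up to 2 rises and 2 falls per related list and comparison, and Mki67, Rbl1, Cdkn1c, E2f1 and Ccnd1; 1 further gene of this rule is not analysed here. Alternatives changed the scaling, pseudocount, filter, variance model, arrays and choice of probe set.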

Additional observations from a re-analysis of the deposited data

How the results depend on the processing

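Calls of Btg2 at its brighter probe set at P90 against both embryonic stages, and of Cdkn2c at P90 against E8.5, held under every alternative in which they were computed; those of Cdkn1a, Cdkn2b, Rbl2 and the dimmer Btg2 probe set did not. At E13.5 against E8.5 the count of member probe sets called (1) became 3 with quantile normalization, 0 with arrays shifted to one median, 2 with a pseudocount of 1, 0 with no filter, 0 with 1 probe set per gene (fewer probe sets tested) and 7 without both E13.5 replicate 2 and P90 replicate 1, and 0 to 3 without single arrays. At P90 against E13.5 (2) it became 4 with quantile normalization (3 rose, 1 fell), 1 with only the 2 stages fitted and 8 without both arrays, and 1 to 6 without single arrays. At P90 against E8.5 (5) it became 2 with a filter at the 60th percentile and 3 with 1 probe set per gene, both of which test fewer members, and 2 to 5 without single arrays. The share of all probe sets called moved as well. Without both arrays it was 23.5%, 21.4% and 34.1% in the same order, against 15%, 7.48% and 20.8% in the main fit. Without single arrays it was 8.16% to 17.8%, 3.46% to 10.6% and 12.7% to 26.2%. Calls over the related lists at P90 against E13.5 (17) became 26 with quantile normalization, 10 with only the 2 stages fitted, 32 without both arrays and 9 to 23 without single arrays; their counts in the other comparisons stayed within 1.5 times. Among single lists at P90 against E13.5, the 6 E2F targets called became 10 with quantile normalization, 11 without both arrays and 3 without probe sets ending in _x_at or _s_at, and the cyclins and kinases (2 falls) became 1 rise and 3 falls with quantile normalization. The immediate early genes' 2, 2 and 4 calls became 1 to 5, 1 to 4 and 2 to 7. Except where named, the cause was not tested.

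No change of direction touched a called result. At E13.5 against E8.5, without E13.5 replicate 2 and also without both arrays, Cdkn2a turned to -0.35 and Rbl2 to -0.03, and Btg2 was -0.38 at its dimmer probe set. Btg1 at 1426083_a_at turned to -0.07, -0.44 and -0.13 without E8.5 replicate 1, E13.5 replicate 1 and E13.5 replicate 3, and at 1442018_at to -0.16 without E8.5 replicate 1. At P90 against E13.5, Cdkn2b turned to -0.07 without P90 replicate 1 and -0.27 without both arrays. Cdkn1b turned to -0.01 and -0.08 without E13.5 replicate 2 and P90 replicate 2 and was -0.37 at its dimmer probe set, and Rbl2 turned to -0.07 without E13.5 replicate 1. Btg1 was 0.19 at 1426083_a_at, where it turned to -0.66, -0.09 and -0.94 without E13.5 replicate 2, P90 replicate 1 and both. At P90 against E8.5, Btg1 turned to -0.14 with arrays shifted to one median, -0.01 without E8.5 replicate 1 and -0.21 without P90 replicate 1 or both arrays, and was -0.6 at 1442018_at. Cdkn1a turned to -0.06 without P90 replicate 1 or both arrays, and Cdkn1b at 1419497_at to -0.15 and -0.05 without E8.5 replicate 1 and P90 replicate 2. Over single arrays left out, the highest values of these results were 0.44 for Cdkn2a, 0.6 for Rbl2 and, for Btg1, 0.99 at 1426083_a_at and 0.72 at 1442018_at at E13.5 against E8.5. At P90 against E13.5 they were 0.51 for Cdkn1b, 0.91 for Cdkn2b, 0.56 for Rbl2 and 0.77 for Btg1 at 1426083_a_at. At P90 against E8.5 they were 0.96 for Cdkn1a, 0.21 for Btg1 and 0.55 for Cdkn1b at 1419497_at. Shifting arrays to one median moved the median change of all probe sets at P90 against E8.5 from 0 to -0.15.

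With the replicate number as a block, 1, 3 and 5 member probe sets and 31, 14 and 41 genes of the related lists were called, and the added member was Cdkn2c at P90 against E13.5 (limma adjusted p = 0.0205). Same-numbered arrays of different stages correlated in their deviations at -0.36 to 0.42, with 3 of 9 pairs over 0.1 and 3 of 9 arrays closest to one of their own number, so the number is not taken as a pairing.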
